A study of Drosophila melanogaster with 2 samples.

Results

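The 8 Hox genes of Drosophila melanogaster, lab, pb, Dfd, Scr, Antp, Ubx, abd-A and Abd-B, were matched by symbol among the 13945 protein-coding genes that the Ensembl annotation places on the 6 chromosome arms, and all 8 were found, all on 3R. Their sites of CG1792 binding were read from ChIP-seq peak lists. CG1792 is a C2H2 zinc finger protein with an N-terminal ZAD domain, and it was precipitated through a C-terminal GFP tag. The description gives the antibody as anti-GFP, whereas the antibody entry reads CG1792. The chromatin came from whole embryos of mixed sex aged 0 to 24 h, all of the transgenic CG1792-GFP strain. The 2 libraries, biological replicates 2 and 3, formed 1 group with no untagged or untreated group beside it, so no contrast between conditions was made. Every nucleus of an embryo contributes to such a library, so a site bound strongly in a few cells and a site bound weakly in many cannot be told apart.

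Hox genes encode homeodomain transcription factors that give the segments of the embryo their identity along the head-to-tail axis. In the fly they lie in the Antennapedia complex, with lab, pb, Dfd, Scr and Antp acting in the head and anterior thorax, and in the bithorax complex, with Ubx, abd-A and Abd-B acting in the posterior thorax and abdomen. Gap and pair-rule factors set their early domains, Polycomb and trithorax group proteins maintain them, and long introns and intergenic stretches with enhancers, silencers and boundary elements carry much of this control.

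In dm6 the Antennapedia complex genes lie on 3R in the order lab at 6661427 to 6678590, pb at 6707800 to 6742063, Dfd at 6791836 to 6802428, Scr at 6823120 to 6849981 and Antp at 6896253 to 6999228. The bithorax complex follows farther along the arm, with Ubx at 16656623 to 16734426, abd-A at 16807214 to 16830049 and Abd-B at 16927212 to 16972236. Dfd is read from the plus strand and the other 7 from the minus strand, so the downstream side of those 7 is the side of lower coordinates. Lengths run from 10593 bp for Dfd to 102976 bp for Antp.

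A thresholded peak below is 1 of the 2892 peaks that the authors kept by the irreproducible discovery rate, which were also the 2892 strongest of the 30000 pooled regions. A summit is the highest point of a region. Of the 8 genes, 0 had a thresholded summit within 500 bp of any annotated start. In all, 7 thresholded summits lay in a Hox gene or within 10 kb of one, 4 of them in introns of Antp and the others in the downstream flanks of Scr, Ubx and abd-A. By far the strongest of the 7 lay in the flank of abd-A.

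The sequences of these 7 sites are given first because every thresholded statement on the Hox genes rests on them. All are dm6, plus strand, 5′ to 3′. The abd-A flank region is whole, at 216 bp, and the others are the summit base with 50 bp on each side. Capitals mark a match, on either strand, to any of the 11 consensus elements searched, which are named with their counts further on.
abd-A flank, chr3R:16798790-16799005: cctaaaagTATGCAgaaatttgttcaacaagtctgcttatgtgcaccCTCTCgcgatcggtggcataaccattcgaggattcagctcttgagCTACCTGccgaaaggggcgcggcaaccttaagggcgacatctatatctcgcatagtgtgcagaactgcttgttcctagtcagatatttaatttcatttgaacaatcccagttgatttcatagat
Antp intron, chr3R:6912437-6912537: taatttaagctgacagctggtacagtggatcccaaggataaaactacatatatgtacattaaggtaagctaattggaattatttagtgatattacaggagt
Antp intron, chr3R:6914505-6914605: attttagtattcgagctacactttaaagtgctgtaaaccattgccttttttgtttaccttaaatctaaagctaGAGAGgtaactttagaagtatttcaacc
Antp intron, chr3R:6920085-6920185: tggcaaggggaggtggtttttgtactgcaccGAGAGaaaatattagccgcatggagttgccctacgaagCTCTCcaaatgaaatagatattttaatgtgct
Antp intron, chr3R:6936318-6936418: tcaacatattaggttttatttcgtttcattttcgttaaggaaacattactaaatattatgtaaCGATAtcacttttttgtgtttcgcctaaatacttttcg
Scr flank, chr3R:6816336-6816436: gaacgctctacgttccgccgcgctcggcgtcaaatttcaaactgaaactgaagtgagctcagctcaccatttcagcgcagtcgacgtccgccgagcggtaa
Ubx flank, chr3R:16647053-16647153: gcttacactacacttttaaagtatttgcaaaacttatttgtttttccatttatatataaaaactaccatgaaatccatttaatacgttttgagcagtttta

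Sites at the Hox starts themselves came only from the pooled and single-replicate lists, which also hold weak background regions. The windows of 4 of them, 1 each for Antp, Ubx, Dfd and Abd-B, are given for comparison with the thresholded sites, with capitals as before.
Antp start, chr3R:6999334-6999434: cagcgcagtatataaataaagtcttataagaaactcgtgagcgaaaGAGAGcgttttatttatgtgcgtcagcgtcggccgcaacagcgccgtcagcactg
Ubx start, chr3R:16734323-16734423: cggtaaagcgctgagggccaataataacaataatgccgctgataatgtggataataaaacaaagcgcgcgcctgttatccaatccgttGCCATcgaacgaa
Dfd start, chr3R:6791818-6791918: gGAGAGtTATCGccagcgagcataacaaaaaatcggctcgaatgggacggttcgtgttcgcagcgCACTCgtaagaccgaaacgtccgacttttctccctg
Abd-B start, chr3R:16960278-16960378: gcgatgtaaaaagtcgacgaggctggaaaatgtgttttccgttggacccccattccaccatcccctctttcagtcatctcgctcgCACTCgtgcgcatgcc

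The strongest site near a Hox gene lay in the space between Ubx and abd-A, 8341 bp downstream of the end of abd-A, with its summit at position 16798873 of 3R. abd-A specifies the identity of abdominal segments and is read from the minus strand, so its start lies farther away, at 29232 bp. The pooled region had a signal value of 251 and rank 225 of 30000. In replicate 2 a summit 15 bp away had a signal of 105 and rank 291, and in replicate 3 a summit 6 bp away had a signal of 150 and rank 183. It stood near the top of each list, at percentiles 99.2, 99.0 and 99.4 in the pooled list, replicate 2 and replicate 3, where a percentile is the share of regions in that list with a lower signal. It was also narrower than the usual 416 bp. The window of 50 bp on each side of its summit held matches to GAGAG, the core bound by GAGA factor, and to CAGGTAG, the element of the early activator Zelda, and had a GC content of 56.4%. No annotated start lay within 500 bp. Of the 7 thresholded Hox summits it alone was among the 2892 strongest regions of both replicates within 100 bp, a property of 1945 (67.3%) of all thresholded peaks.

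Antp, which specifies thoracic identity and is the longest of the 8 genes at 102976 bp, was the only Hox gene with a thresholded summit inside it. Its 4 summits fell in introns and gave 38.8 per Mb of gene, beside 21.7 per Mb over the whole of 3R and 17.0 per Mb within genes of 10 kb or longer. Among the 2892 strongest regions of replicate 2 alone, Antp held 2 summits (19.4 per Mb) beside 22.5 per Mb on 3R, and in replicate 3 it held 3 (29.1 per Mb) beside 21.4 per Mb, so the higher density of Antp was not present in replicate 2. All 4 also lie in an intron of CG46458, a protein-coding gene annotated over the same strand and stretch, so none belongs to Antp alone. The summit at 6914555 had a pooled signal of 86.3 (rank 1859), with 31.9 (rank 3095) in replicate 2 and 48.8 (rank 1783) in replicate 3. The summit at 6936368, the one nearest an Antp start at 3528 bp, had a pooled signal of 82.7 (rank 2020), with 41.6 (rank 1881) and 37.4 (rank 2930) in replicates 2 and 3. Both lay below the median signal of all thresholded peaks, which was 100.6.

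The remaining pair of Antp intron sites lay closer to the threshold, whose lowest signal was 66.97. The summit at 6912487 had a pooled signal of 76.6 (rank 2300), with 27.8 (rank 4115) in replicate 2 and 42.3 (rank 2315) in replicate 3. The summit at 6920135 had a pooled signal of 68.2 (rank 2795), with 25.6 (rank 4985) and 42.1 (rank 2343). At 3 of the 4 Antp sites the rank was better in replicate 3 than in replicate 2, and the exception was 6936368. Replicate 2 had its own strongest Antp summit at 6912332, with rank 1573, which is 155 bp from the pooled summit at 6912487 and so was not counted as the same site.

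The other flank sites were weaker and each lay at the start of another gene. Downstream of Scr, which specifies labial and prothoracic identity, the summit at 6816386 was 6734 bp from the gene end and 7 bp from the start of lncRNA:CR42651, a noncoding gene that overlaps mir-10. Its pooled signal was 67.8 (rank 2827), with 33.6 (rank 2806) in replicate 2 and 34.6 (rank 3326) in replicate 3. Downstream of Ubx, which specifies posterior thoracic identity, the summit at 16647103 was 9520 bp from the gene end and within 500 bp of a start of CG10324. Its pooled signal was 70.7 (rank 2619), with 37.7 (rank 2256) and 30.2 (rank 4181). A flank of 5 kb would leave out both of these and the abd-A flank site.

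**Figure D1:**
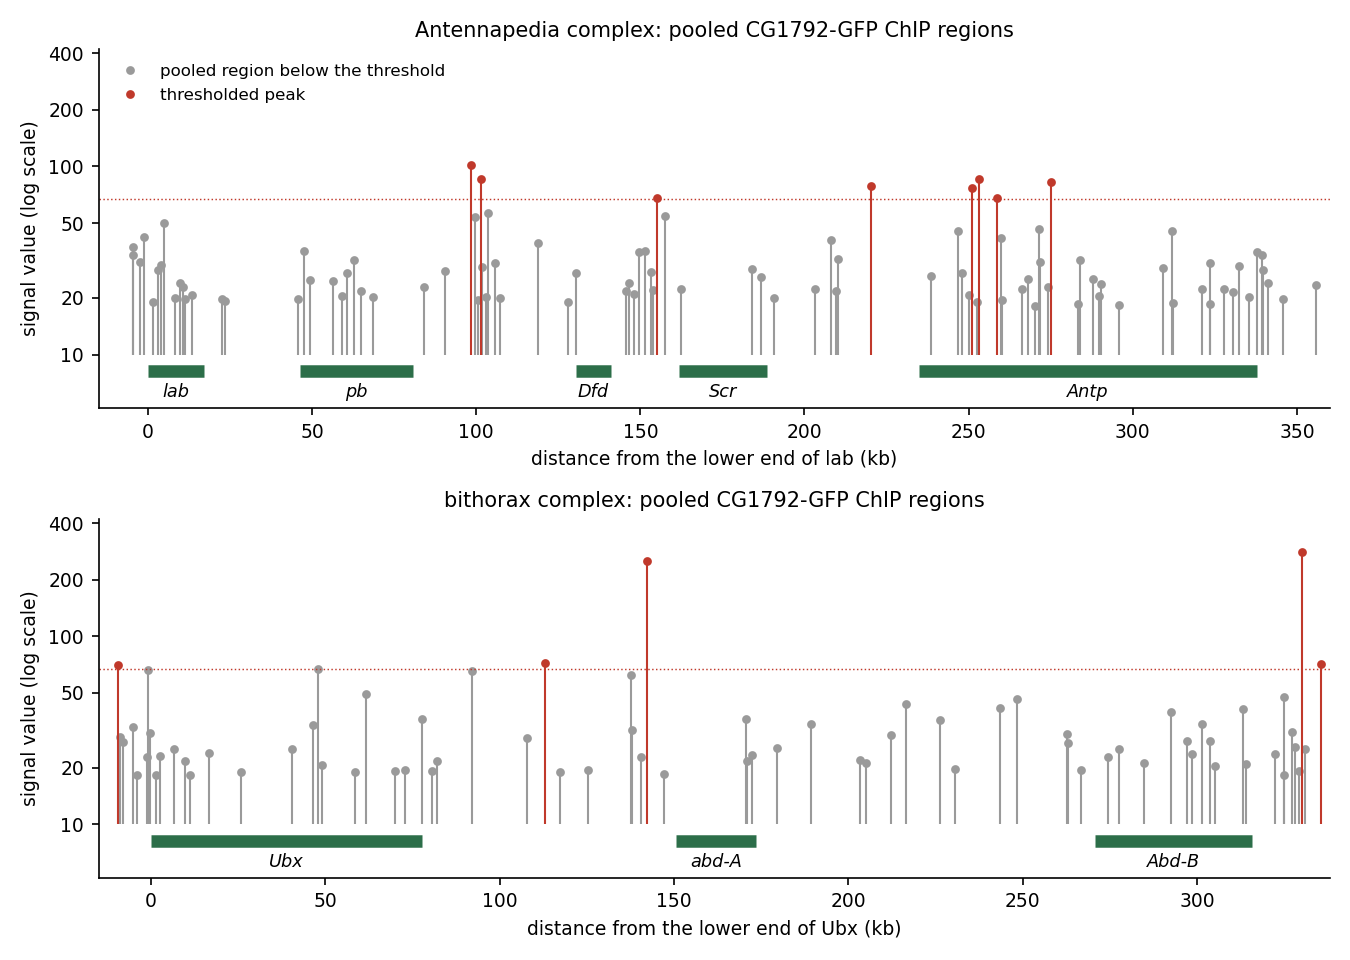
Position in kb (horizontal axis) and deposited signal value (vertical log axis) of pooled regions in the Antennapedia and bithorax complexes, with thresholded peaks in red, other regions in grey, the lowest thresholded signal (66.97) as a dotted line and Hox genes as green bars; stems mark position only. Of the red points, 4 stand within Antp and none within another Hox gene, and the tall points beside abd-A and beyond Abd-B have signals of 251 and 280.

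Read against other genes, these counts were not high. A thresholded summit within 500 bp of a start was found at 14.2% of all protein-coding genes, and at 396 of the 1977 that are 10 kb or longer, as all 8 Hox genes are. With 8 genes, a count of 0 is not read as a difference from either. A thresholded summit within the gene was found for 1 of 8 Hox genes, beside 8.90% of all genes and 32.2% of long ones, and in an intron for the same gene, beside 6.51% and 30.7%. A thresholded summit in the gene or within 10 kb was found for 4 of 8, beside 50.7% and 60.3%, which is near the background.

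The regions just outside the threshold lay at Ubx. The summit at 16704396, in an intron of Ubx, had a pooled signal of 66.7 (rank 2912), with 24.0 (rank 5824) in replicate 2 and 35.7 (rank 3149) in replicate 3. The summit at 16655869, which lies 754 bp beyond the end of Ubx and within 500 bp of a start of modSP, a serine protease gene, had a pooled signal of 66.1 (rank 2969), with 40.4 (rank 1989) and 24.5 (rank 5974). Both were present in both replicates within 100 bp, and both lay within 2 signal units of the weakest thresholded Hox site.

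At the Hox starts, weak regions were common and differed between the replicates. The 8 genes have 19 annotated starts in all, from 1 each at pb, Dfd and Ubx to 6 at Abd-B. The nearest thresholded summit was a median of 30879 bp from these starts, with a range of 3528 to 96241 bp, while over all 19252 protein-coding starts the median was 10852 bp and 12.9% had a thresholded summit within 500 bp. All starts of Abd-B shared the same nearest summit, as did all of abd-A, and the lab and pb starts shared another. The Hox distances are therefore not separate observations. A pooled summit lay within 500 bp of 8 of the 19 (42.1%), beside 51.9% of all starts. The figures were 6 of 19 (31.6%) beside 47.9% in replicate 2, and 8 of 19 (42.1%) beside 52.8% in replicate 3.

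Counted by gene, 6 of 8 (lab, Dfd, Scr, Antp, Ubx and Abd-B) had a pooled summit at a start, beside 53.2% of all genes and 71.2% of long genes. In replicate 2 the genes were Scr, Antp, abd-A and Abd-B, 4 of 8, beside 49.6%. In replicate 3 they were pb, Dfd, Antp, Ubx and Abd-B, 5 of 8, beside 54.0%. Only Antp and Abd-B were therefore counted in both replicate lists, and 3 of the 9 pooled regions at Hox starts had a summit of each replicate within 100 bp.

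**Figure D2:**
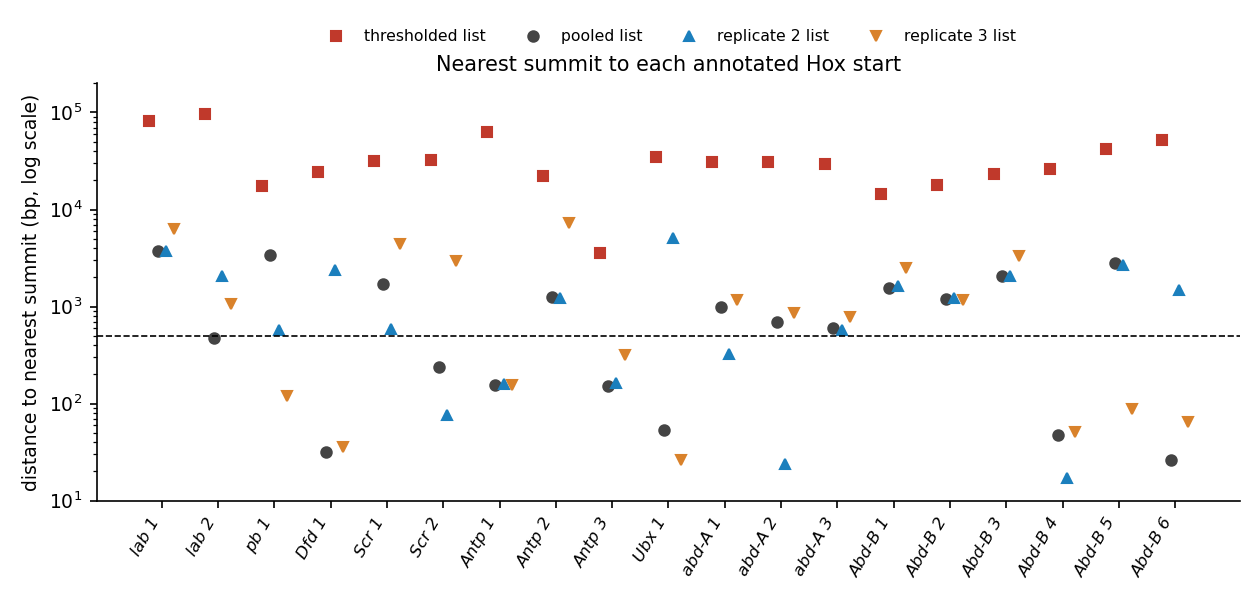
Distance in bp (log axis) from each of the 19 annotated Hox starts, numbered along each gene from its outermost start, to the nearest summit of the thresholded, pooled, replicate 2 and replicate 3 lists; the dashed line marks 500 bp. All thresholded points lie above the line, at 3528 bp or more, while pooled points fall on either side of it.

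The region at a start whose position repeated most closely belonged to Antp. The outermost Antp start, at 6999228, had a pooled summit 156 bp upstream with a signal of 35.0 (rank 8850), and here the summits of all 3 lists fell within 2 bp of each other, at ranks 7640 in replicate 2 and 22100 in replicate 3. The region was weak in each list.

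At Ubx the pooled summit lay 53 bp inside the gene from its start and had a signal of 36.5 (rank 8191). Replicate 3 had a summit 27 bp from it with a signal of 27.2 (rank 5036), and the nearest summit of replicate 2 was 5023 bp away. At Dfd, which specifies maxillary and mandibular identity, the pooled summit 32 bp from the start had a signal of 27.1 (rank 14553), again with a partner in replicate 3 (17.5, rank 10719), while the nearest summit of replicate 2 was 2437 bp away. At these 2 starts, only replicate 3 listed a summit within 100 bp of the pooled one. A signal in replicate 2 below its weakest listed region (11.4) would not be seen.

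At Scr the pooled summit was 236 bp from the start at 6848505 with a signal of 25.8 (rank 15939), and its partner was in replicate 2 alone, with a signal of 27.0 (rank 4409) 40 bp away. At Abd-B, which specifies the most posterior abdominal segments, the start at 16960281 had a pooled summit 47 bp upstream with a signal of 27.6 (rank 14010) and partners in both replicates at 14.4 (rank 19038) and 12.0 (rank 20597). A further Abd-B start, at 16934242, had a pooled signal of 25.1 (rank 16788) 26 bp away and a partner in replicate 3 alone (27.6, rank 4898). Replicate support therefore differed from start to start within the same gene.

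The last gene with a pooled region at a start was lab, the Hox gene of the intercalary head segment. Its region 478 bp from the start at 6663454 had a signal of 19.0 (rank 27671), and the nearest summit of either replicate was 1536 bp away. At pb, which specifies mouthpart identity, the nearest pooled summit was 3404 bp upstream of the start, with a signal of 22.9 (rank 19966). At abd-A it was 597 bp from the start at 16828105, with a signal of 21.8 (rank 21867).

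The strongest region of each gene, in the gene or within 10 kb, placed the 8 along a wide scale. For abd-A, Ubx, Scr, Abd-B and Dfd the strongest pooled region was a flank site. Inside these genes the highest pooled percentiles were 72.4, 90.3, 55.5, 78.0 and 51.5, in the same order. Such a maximum also depends on the number of pooled regions in the window, from 6 at Dfd to 38 at Antp. Over gene and flanks, the pooled percentiles were 99.2 for abd-A, 93.8 for Antp, 91.3 for Ubx, 90.6 for Scr, 84.3 for lab, 82.7 for Abd-B, 71.1 for pb and 70.8 for Dfd. The median was 87.4, beside 91.8 over the 12905 genes with any pooled region and 93.6 over the 1918 long genes with one. In replicate 2 the median was 89.0 beside 91.4 and 93.4, and in replicate 3 it was 88.2 beside 91.6 and 93.6.

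For abd-A, Antp and Scr the percentile differed by less than 2 points between the lists. Dfd varied most, from 56.9 in replicate 2 to 74.8 in replicate 3, and was lowest of the 8 in each list. Ubx lay between Scr and Antp in the pooled list, but its strongest summit was a different one each time. It was 16647103 in the pooled list, 16655869 in replicate 2 (signal 40.4) and 16718195 in replicate 3 (signal 37.3). The same held for pb, at 6709041, 6707255 and 6724111. Antp, Dfd and Abd-B had another strongest site in replicate 2, and Scr had another in replicate 3. Only abd-A and lab kept the same site, within 100 bp, in all 3 lists. Of the neighbours in this order, Ubx and Scr, lab and Abd-B, and pb and Dfd had ranges over the 3 lists that overlapped. The ranges of abd-A and Antp, Antp and Ubx, Scr and lab, and Abd-B and pb did not overlap.

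**Figure D3:**
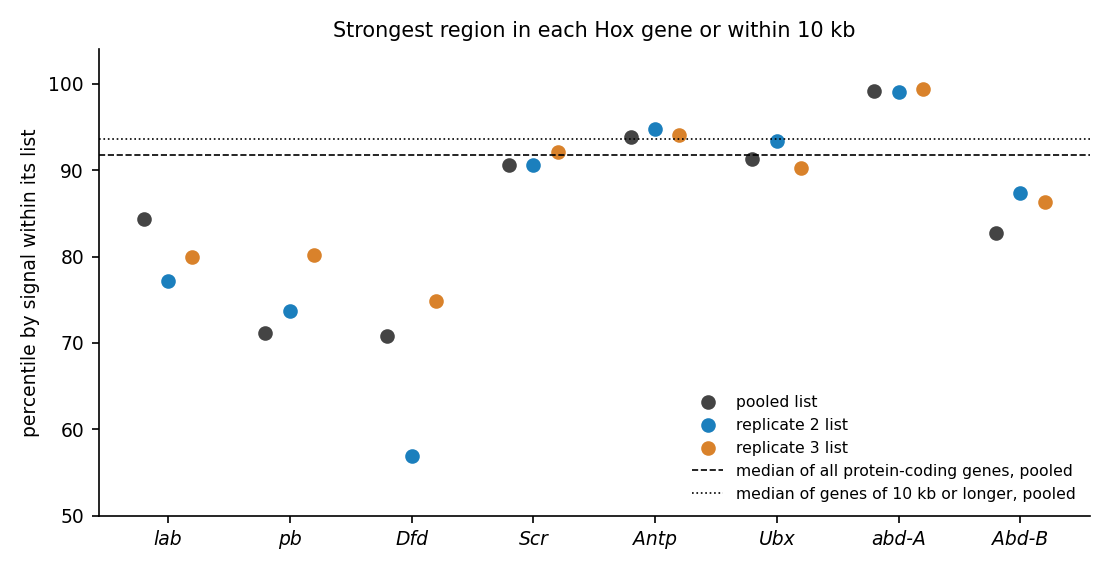
Percentile by signal of the strongest region in each Hox gene or within 10 kb, in the pooled, replicate 2 and replicate 3 lists, with the pooled medians over all protein-coding genes (91.8, dashed) and over genes of 10 kb or longer (93.6, dotted). abd-A stands at 99.0 or above in all 3 lists, and lab, pb, Dfd and Abd-B stand below both medians in all 3.

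The sites behind the lower values were these. The strongest lab region, in an intron at 6666293, had a pooled signal of 50.3 (rank 4705), with 22.4 (rank 6846) in replicate 2 and 24.3 (rank 6028) in replicate 3. The strongest pb region, in an intron at 6709041, had a pooled signal of 35.4 (rank 8659), with 18.4 (rank 10842) and 14.4 (rank 15219). Both were weak in each list yet repeated within 100 bp. The strongest Dfd region, 8628 bp beyond the gene end at a start of lncRNA:CR45915, had a pooled signal of 35.2 (rank 8755) and a partner in replicate 3 alone (21.3, rank 7554). The strongest Abd-B region, 9143 bp upstream in an intron of AhcyL2, had a pooled signal of 47.3 (rank 5180) and a partner in replicate 3 alone (30.5, rank 4110). Inside Abd-B the strongest was an intron region at a pooled signal of 41.1 (rank 6599), with 28.9 (rank 3782) and 14.5 (rank 14843) in replicates 2 and 3.

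In total, 128 pooled regions had their summit in a Hox gene or within 10 kb. Of these, 68 (53.1%) lay in introns, 43 (33.6%) in flanks, 9 (7.03%) at Hox starts and 8 (6.25%) in exons. The same split over all pooled regions is not given here, so these shares are not read as particular to Hox genes. An intron held a pooled summit in 6 of 8 genes, all but Dfd and abd-A, beside 24.5% of all genes and 83.6% of long ones. Within the genes there were 249 pooled regions per Mb, beside 221 on 3R and 217 in long genes, so weak regions were about as dense as elsewhere. Thresholded summits were at 11.9 per Mb within the Hox genes and 14.1 per Mb with the flanks, beside 17.0 and 23.2 per Mb for long genes. Those Hox values rest on 4 and 7 summits.

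The genes differed in how many regions they held. lab had 9 pooled regions in 17164 bp (524 per Mb), the densest of the 8 in the pooled list, and none was thresholded. In replicate 2 it had 5 (291 per Mb), fewer per Mb than Antp and Abd-B at 311 each, and in replicate 3 it had 7 (408 per Mb). In the pooled list Antp had 33 (320 per Mb), Abd-B 11 (244 per Mb), pb 8 (233 per Mb) and Ubx 16 (206 per Mb). abd-A had 3 (131 per Mb), Scr 3 (112 per Mb) and Dfd 1 (94.4 per Mb). For abd-A the replicates gave 5 and 7 regions where the pooled list gave 3, so counts this small carry that much spread.

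The complexes as wholes also differed in the thresholded and pooled lists. From lab to Antp there were 8 thresholded summits in 338 kb (23.7 per Mb), close to the 21.7 per Mb of 3R. From Ubx to Abd-B there were 2 in 316 kb (6.34 per Mb), the abd-A flank site and a weaker one in an intron of lncRNA:bxd, the noncoding gene upstream of Ubx, with its summit at 16769551, a pooled signal of 72.1 (rank 2557), 27.2 (rank 4317) in replicate 2 and 40.9 (rank 2487) in replicate 3. Pooled regions were at 252 and 174 per Mb in the respective complexes. In replicate 2 the values were 249 and 190 per Mb. In replicate 3 they were 222 and 200 per Mb, a much smaller difference. The thresholded values rest on 8 and 2 summits. The space between abd-A and Abd-B, 97.2 kb that includes the iab regulatory domains of the abdomen, held 0 thresholded summits and 13 pooled regions, the strongest with a signal of 46.5 (rank 5341). Between lab and pb, the strongest of the 3 pooled regions was at rank 26023, the weakest such maximum of the 6 intervals between neighbouring Hox genes.

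**Figure D4:**
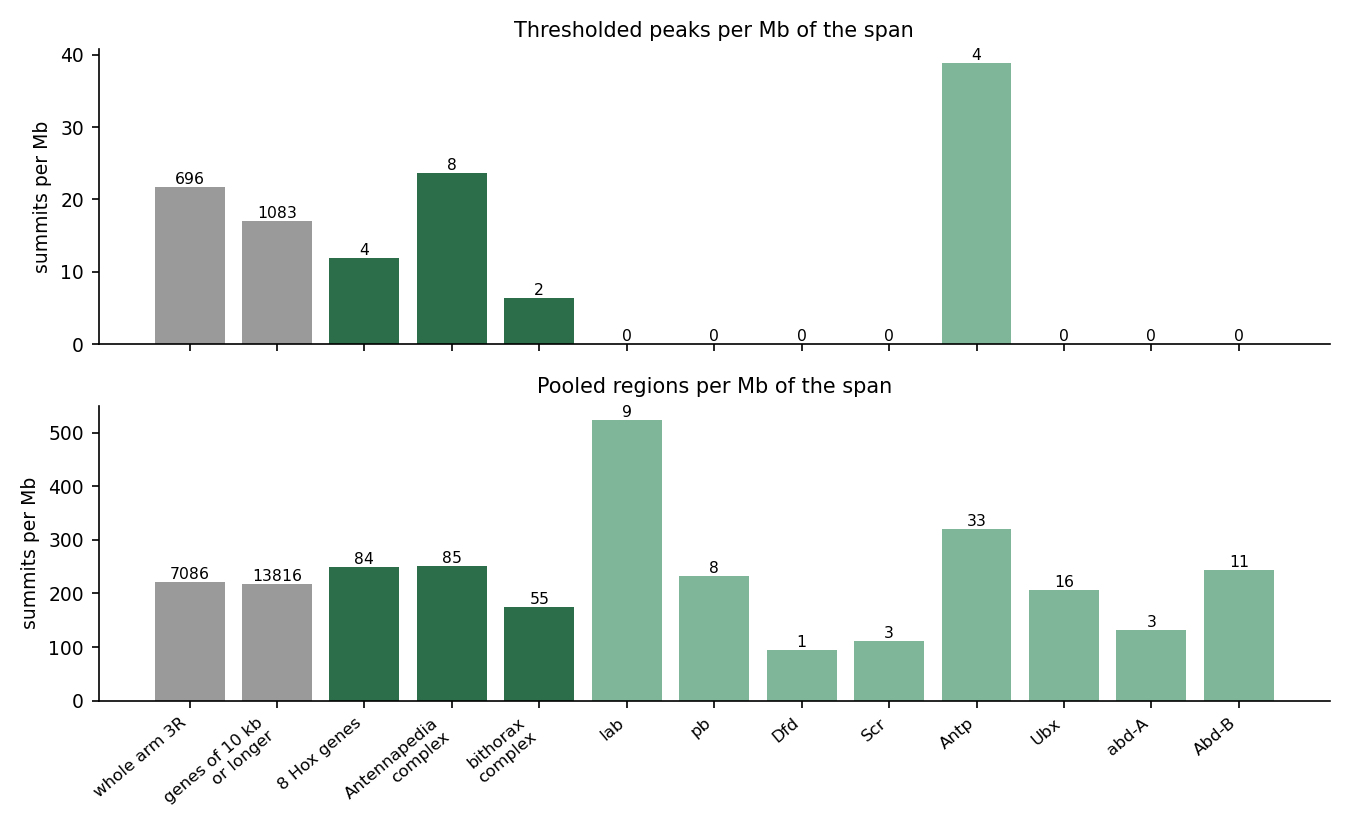
Summits per Mb (vertical axes) of thresholded peaks and pooled regions in 3R, in genes of 10 kb or longer, in the Hox genes together, in each complex and in each Hox gene, with the number of summits above each bar. Among the single genes only Antp has a thresholded bar (38.8 per Mb), whereas every gene has pooled regions, with lab highest at 524 per Mb in this pooled list but not in replicate 2.

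Other genes of the same neighbourhoods accounted for the remaining thresholded summits in the complexes. In the Antennapedia complex, bcd, whose protein organises the anterior pattern of the early embryo, had a summit at 6759695, 229 bp from its start, with a pooled signal of 102 (rank 1404), 43.6 (rank 1747) in replicate 2 and 59.8 (rank 1224) in replicate 3. Of the 4 homeobox genes there outside the Hox set (bcd, zen, zen2 and ftz), 1 had a thresholded summit at a start, and it was bcd. Of the 36 further genes annotated from lab to Antp, 3 had one at a start, and the 3 share 2 summits, since Ama (signal 86.1, rank 1866) and lncRNA:CR45593 have the same one and the other gene is lncRNA:CR42651. Only 11 of the 36 are protein-coding, and of these Ama alone was counted, beside 14.2% of all protein-coding genes. Within the gene, 4 of the 36 had a thresholded summit, namely Ama, lncRNA:CR45593, CG46458 and lncRNA:CR44931. Of the 11 protein-coding ones only Ama and CG46458 were counted, beside 8.90% of all protein-coding genes, and the CG46458 summits are those already counted for Antp. The lncRNA:CR44931 summit, at 6881819 in an intron, lay 14434 bp downstream of Antp. Its pooled signal was 78.7 (rank 2191), with 28.9 (rank 3764) in replicate 2 and 50.9 (rank 1654) in replicate 3. Of the 14 genes from Ubx to Abd-B, 3 of them protein-coding, 0 had a thresholded summit at a start and 1, lncRNA:bxd, had one in the gene. Just beyond Abd-B, 14392 bp upstream of its outermost start, a summit at 16986628 at the start of CG18622 had a pooled signal of 280 (rank 176), with 113 (rank 246) and 162 (rank 156). This was stronger than any site within 10 kb of a Hox gene and lay outside that limit.

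Genes that act with, on or under the Hox genes were examined as lists. Of the Hox cofactors exd, hth and tsh, 0 of 3 had a thresholded summit at a start, and hth, whose protein takes Hox-binding Exd into the nucleus, had one in the gene (signal 73.2, rank 2489). Of 6 Hox targets, 1 had a thresholded summit at a start, namely rpr, a cell death gene, 72 bp away with a signal of 70.2 (rank 2644), 24.6 (rank 5493) in replicate 2 and 44.1 (rank 2141) in replicate 3. The growth factor gene dpp had one in the gene (signal 109, rank 1263). Of 14 early regulators, namely gap and pair-rule genes together with cad, 0 had one at a start and 1 had one in the gene. This was cad itself, a posterior homeobox gene (signal 113, rank 1178). Of 24 homeobox genes outside the Hox complexes, 0 had one at a start and 2, hth and cad, had one in the gene. The counts at starts stand beside 14.2% of all genes, and the counts in the gene beside 8.90% of all genes and 32.2% of long ones. The lists are too short for a reading of each, and several of them share members.

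Repeatability of the Hox regions followed their strength. All 7 thresholded Hox regions had a summit in each replicate within 100 bp, beside 95.2% of all thresholded regions. That list was derived from both of these replicates and holds the strongest pooled regions, and pooled ranks draw on both. Such a trend is therefore largely built in. Among ranks 2893 to 10000 the figure was 13 of 24 (54.2%), beside 66.0% of all regions in that band, and among weaker ones 11 of 97 (11.3%), beside 13.7%. Over all ranks it was 31 of 128 (24.2%), beside 34.0%. The Hox set held a larger share of the weakest band, with 75.8% of its regions there beside 66.7% of all, and its median signal was 24.4 beside 26.7. A further 17 of the 128 had a summit in neither replicate, beside 3628 of all 30000 pooled regions, a similar share.

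**Figure D5:**
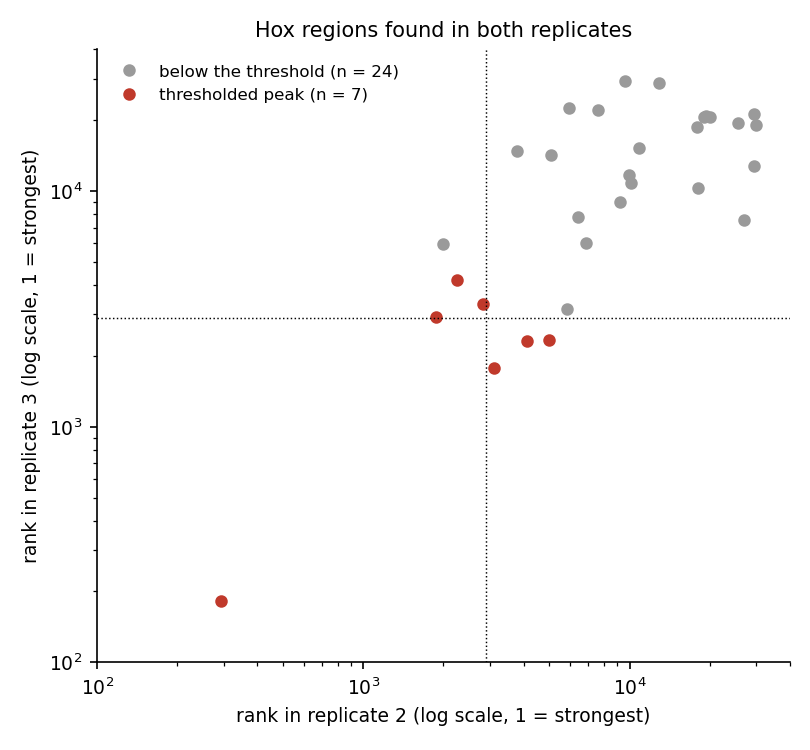
Rank in replicate 2 (horizontal log axis) and in replicate 3 (vertical log axis) of the 31 Hox regions with a summit in both, where rank 1 is strongest; the dotted lines mark rank 2892. A single thresholded region, the abd-A flank site at ranks 291 and 183, lies well inside both lines, and the other 6 lie near the lines, each beyond at least 1 of them.

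The windows around the Hox summits, some of which are shown above, were searched on both strands for 11 consensus elements. Of these CGATA lies within TATCGATA, and GAGAG and GAGTG matches can overlap. GAGAG was in 3 of the 7 thresholded windows, beside 12.0% of all thresholded windows, and in 32 of the 128 pooled windows (25.0%), beside 12.7% of all pooled windows. GCCAT, the core for the Polycomb recruiter Pho, was in 0 of the 7 beside 15.6%, and in 29 of the 128 (22.7%) beside 18.5%. CAGGTAG was in 1 of the 7 beside 0.622% of all thresholded windows, and in 3 of the 128 (2.34%) beside 0.583%. GAGTG, bound by Zeste, was in 16 (12.5%) beside 15.5%. These shares describe letters in a window and were not tested.

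CGATA was in 11 of the 128 (8.59%) beside 13.7% of all pooled windows, and the full DNA replication-related element TATCGATA was in 0 beside 1.05%. TGCATA, the core for Su(Hw), was in 11 (8.59%) beside 6.86%, AGGNGGC, the core for CTCF, in 6 (4.69%) beside 4.49%, and GGTCACACT, a core promoter element, in 0 beside 0.597%. TAATTA, bound by homeodomains, was in 4 (3.12%) beside 5.91%, and TGATNNAT, bound by Exd with Hox proteins, in 7 (5.47%) beside 6.34%. The median GC content of the windows was 43.6% beside 41.6% over all pooled windows, and for the 7 thresholded ones 32.7% beside 35.6%. Within the 7, GC content ran from 24.8% at the Ubx flank to 56.4% at the flanks of abd-A and Scr.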

How the data were processed

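The values were dm6 peak lists made by the authors, 1 per replicate, 1 for the pooled replicates and 1 thresholded by the irreproducible discovery rate. Chromatin was sonicated, per the labels. The alignment, peak calling and filters were steps not given in the sources used here. Signal, as deposited, is the caller's strength of a region. Its scale is not stated, and signals were set side by side only within 1 list, with ranks and percentiles used across lists. The deposited −log10 q-value was not used in any comparison. The lists hold no read counts, so depth is unknown and no interval was given. Genes came from Ensembl release 115 and sequence from the Release 6 (dm6) RefSeq genome. Python 3.11.15, pandas 2.3.3, numpy 2.4.6 and matplotlib 3.10.9 were used, and the assignment of summits was checked on simulated data. Summits within 500 bp of an annotated start, within a gene or within 10 kb counted for a gene, and summits within 100 bp of each other counted as the same site. Of 14 regulators, h was matched under its annotation symbol hry.

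The Hox genes, gene lists and elements were chosen with earlier results of these data known, so no test was run over them. Named genes were all 8 Hox genes with their strongest, start-nearest (save at Antp) and thresholded regions, and for each other list at most 5 members with a thresholded summit. Where nothing beyond the labels' replicate numbers shows separate collections, agreement between the 2 libraries covers the spread between these libraries only. The control alignment, signal tracks and dm3 lists were not analysed here. At an Antp start, 2 further regions, the start-nearest one among them, are not reported here.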

Additional observations from a re-analysis of the deposited data

How the results depend on the processing

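The count of Hox genes with a thresholded summit at a start was 0 under all 6 alternatives tried (250 or 1000 bp, the outermost start only, the stronger 1446 peaks, and each replicate alone with its 2892 strongest regions). Counts over flanks depended on the flank. Genes with a thresholded summit went from 4 to 1 at 0 kb and at 5 kb, to 7 at 20 kb and to 1 with the stronger 1446 peaks. The corresponding summits went from 7 to 4 at 0 kb and 5 kb, to 11 at 20 kb and to 1 with the stronger peaks. Pooled regions went from 128 to 84 at 0 kb. Genes with a pooled summit at a start went from 6 to 3 with the outermost start only. Pooled regions in both replicates went from 31 to 50 at a 250 bp match. With either replicate list alone, genes with a strong summit within 10 kb were 3 to 4, such summits 5 to 6, genes with a region at a start 4 to 5, all regions 114 to 124, and the median percentile of the strongest region 88.2 to 89.0 against 87.4. For single genes, that percentile was labelled as moved in 8 of 16 comparisons, by an allowance that differed from gene to gene. Antp was so labelled at 93.8 against 94.8 in replicate 2, while Dfd at 70.8 against 74.8 in replicate 3 was not. The label therefore does not order the genes by how far they moved. In a comparison chosen after seeing the data, Antp held 4 thresholded summits but 2 to 3 of the strongest regions of either replicate alone. The cause was not tested, and smaller windows and shorter lists hold fewer summits by construction. No paired analysis was possible because the 2 libraries form 1 group.

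Depth is unknown, no input library was analysed, and the weakest regions of a list cannot be told from background, so a region at a Hox start below the threshold is a listed region and not a shown binding site. Absence from the thresholded list says only that no summit passed it.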
